A study of Mus musculus with 6 samples.

Results

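Metallothioneins, heme oxygenase and the proteins that move, store and sense iron were followed through 10 genes: Mt1, Mt2, Hmox1, Blvrb, Fth1, Ftl1, Tfrc, Slc11a2, Slc40a1 and Ireb2. Their probes were found by the gene named in the annotation of each spot, without use of any measured value. This gave 16 of the 55681 probes and 25 of the 59305 spots that are not controls. One Tfrc probe is printed 10 times, and every other member probe once. The arrays were 6 single-color Agilent SurePrint Mouse G3 arrays, hybridized with Cy3-labeled cRNA. RNA came from 1G11 cells, a mouse microvascular endothelial line labeled as strain C57BL/6NCrLBR, in a mock form (1G11-mock, 3 arrays) and a form that overexpresses superoxide dismutase 3 (1G11-SOD3, 3 arrays). Before lysis both lines had spent 6 h in conditioned medium of N202.1A cells, a mouse mammary cancer line, so neither group shows the cells without that medium. Each group is a single modified line, and the study treats its 3 arrays as independent experiments. Differences between the lines therefore cannot be told apart from differences between the derived cultures.

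Metallothioneins are small cysteine-rich proteins that bind zinc and copper, and their genes are switched on by metals through the transcription factor MTF1. Heme oxygenase 1 opens the heme ring and releases iron, carbon monoxide and biliverdin, and it is a classic gene of the oxidative stress response under NRF2. Iron enters cells through the transferrin receptor and DMT1, is stored in ferritin and leaves through ferroportin, while iron regulatory proteins bind the mRNAs of several of these genes when iron is scarce. SOD3 turns superoxide into hydrogen peroxide outside cells, and the comparison made here asked whether transcripts of metal, heme and iron handling differed between cells with and without its overexpression.

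The metallothionein upstream sequences are shown because metals act on these genes through MTF1. Each window stops at the annotated start, and sequence downstream of that start was not searched. The counts below cover these windows only and not all metal-responsive elements of a gene. RefSeq windows were found for 7 of the 10 genes, with none for Hmox1, Slc11a2 or Slc40a1. The 250 bases before the annotated start are printed 5′ to 3′ on build GRCm38.p6, and capitals mark matches on either strand to the metal-responsive core TGCACNC or TGCGCNC.
Mt1, chr8:94178839-94179088, plus strand: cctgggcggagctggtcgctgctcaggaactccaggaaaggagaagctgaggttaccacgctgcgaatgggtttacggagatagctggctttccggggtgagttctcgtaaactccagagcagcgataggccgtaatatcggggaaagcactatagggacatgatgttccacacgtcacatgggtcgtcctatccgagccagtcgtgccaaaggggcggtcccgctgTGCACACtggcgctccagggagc
Mt2, chr8:94172368-94172617, plus strand: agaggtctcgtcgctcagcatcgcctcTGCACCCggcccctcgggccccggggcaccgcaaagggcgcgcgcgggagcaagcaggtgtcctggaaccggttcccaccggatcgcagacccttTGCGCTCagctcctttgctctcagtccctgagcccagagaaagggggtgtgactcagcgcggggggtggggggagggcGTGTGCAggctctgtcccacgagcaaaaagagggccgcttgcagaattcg
The Mt2 window held 3 matches and the Mt1 window 1. Of 32851 such windows in the table, 21.4% held at least 1 match and 1.26% held at least 3. A Tfrc window held 2 overlapping matches, its other window none, and the windows of Blvrb, Ftl1, Fth1 and Ireb2 held none. The antioxidant core TGACNNNGC, searched on both strands, occurred in 10.2% of all windows and, among the 7 genes, only in that of Mt2. These matches describe letters and not binding.

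Probe sequences are shown for member probes that lie in coding sequence and that were dim, or that gave another value than a further probe of the same gene. Each is 60 bases long.
Hmox1 A_55_P2029687: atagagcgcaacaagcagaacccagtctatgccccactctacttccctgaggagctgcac
Slc11a2 A_52_P254298: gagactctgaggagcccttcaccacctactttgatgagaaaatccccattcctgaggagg
Tfrc A_65_P06446: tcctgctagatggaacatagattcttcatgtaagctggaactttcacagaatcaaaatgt
Tfrc A_51_P167876: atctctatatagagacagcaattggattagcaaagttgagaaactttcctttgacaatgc
Ireb2 A_52_P77332: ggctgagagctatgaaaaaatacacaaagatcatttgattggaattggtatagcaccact
Ftl1 A_55_P1983959: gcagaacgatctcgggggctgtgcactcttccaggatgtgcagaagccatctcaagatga
The GC content of the Tfrc probe A_51_P167876 was 35.0%, and that of the Tfrc probe A_65_P06446 and of the Ireb2 probe was 36.7%. The Slc11a2 probe had 51.7%, and the Hmox1 and Ftl1 probes had 55.0% each. By the array annotation, whose build is not given in the sources used here, Mt1, Mt2 and Hmox1 lie on chromosome 8, Ftl1 and Blvrb on 7, Tfrc on 16, Fth1 on 19, Slc11a2 on 15, Slc40a1 on 1 and Ireb2 on 9.

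Several facts of the arrays bear on every value below. Spots in the middle of each array (rows 129 to 256 and columns 55 to 109 of 384 rows and 164 columns) read dim on the 1G11-mock arrays. Among 128 probes with copies both there and elsewhere, the copy in the middle minus the copies elsewhere had a median log2 difference of -0.83, -1.27 and -2.62 on 1G11-mock replicates 1 to 3, and of -0.22 to 0.22 on the 1G11-SOD3 arrays. Member spots in the middle, 1 of Ftl1 and 1 of Tfrc, are therefore described apart. All 6 arrays lay on 1 slide, with the 1G11-mock arrays in slide row 2 and the 1G11-SOD3 arrays in slide row 1, so slide row and cell line cannot be told apart. Spots well above background made up 34.2% to 36.0% of a 1G11-mock array and 38.4% to 43.8% of a 1G11-SOD3 array, and the mean raw intensity was 3857 to 4433 and 5524 to 6045. These measures moved with cell line before normalization, and their part in the member results was not tested. Sod3 itself, whose probe lies in the middle, read 13.61, 12.66 and 9.86 (log2) on the 1G11-mock arrays and 16.37, 16.30 and 16.26 on the 1G11-SOD3 arrays, and rose by 4.27 (limma adjusted p = 0.0076). After an adjustment for place on the array, described with Ftl1, the rise was 2.64 (limma adjusted p = 0.0147). Among 12 endothelial markers, the best probes of Cdh5, Tek, Tie1, Erg and Emcn were well above background on no array, while Kdr, Eng, Vwf and Esam were so on all, and Vwf fell by 1.65. Of 6 fibroblast and mural markers, Col1a1, Col1a2, Pdgfrb and Acta2 rose in 1G11-SOD3 cells and Rgs5 was well above background on no array. The summed level of these 6 ranged from 5112 to 7923 on the 1G11-mock arrays and from 29412 to 37651 on the 1G11-SOD3 arrays, and its part in the member results was not tested. In RNA from a whole culture, fewer cells of a type and less RNA per cell cannot be told apart.

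No member probe passed the test, which asked for more than a 2-fold difference and a Benjamini-Hochberg adjusted p under 0.05 in limma. Outside the middle this was 0 of 15 probes, against 1.86% of all 49526 probes tested there (0.66% higher and 1.2% lower in 1G11-SOD3 cells). In the middle it was 0 of 2, against 12% of 6435 (11.9% higher and 0.0622% lower). At an unadjusted p under 0.05 there were 4 of the 15 (the Mt1 probe A_52_P423810 but not A_66_P111660, both Slc11a2 probes and Slc40a1), against 12.7% of all probes outside the middle. In the middle it was 1 of 2 (Ftl1), against 28.1% there. The log2 differences of the 15 probes, 1G11-SOD3 minus 1G11-mock, ran from -1.01 to 0.53 with a median of -0.13, beside a median of -0.06 over all probes there. For 10 of the 15 probes the 95% interval of the difference, taken one by one, lay within 2-fold in both directions. These include the dim probes Ireb2 A_52_P77332 and Tfrc A_51_P167876, for which no fold is given below. For such dim probes the interval does not bound the change in RNA. A missed threshold does not show equal levels, and 3 arrays per line limit the precision of each value.

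**Figure D1:**
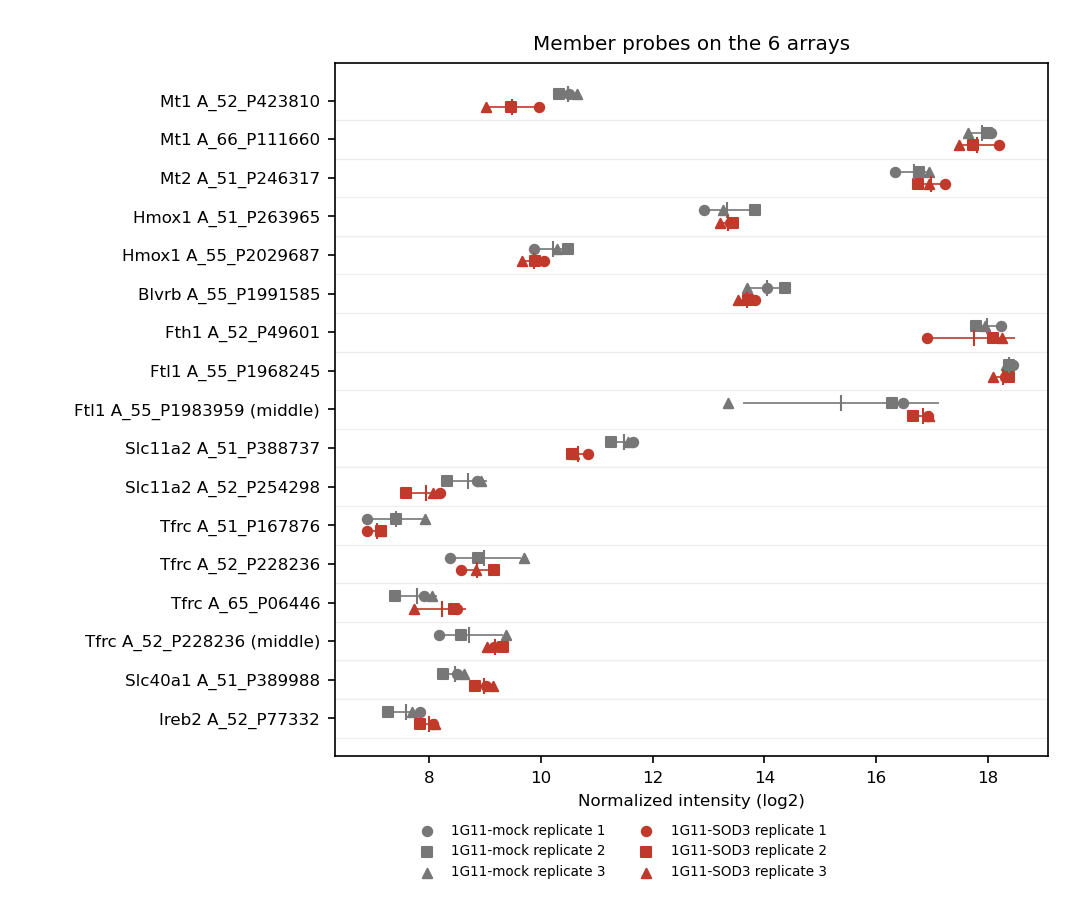
Normalized log2 intensity (horizontal axis) of every member probe (vertical axis) on the 3 1G11-mock arrays (grey) and the 3 1G11-SOD3 arrays (red), with marker shapes for replicates 1 to 3, the mean as a tick and the SD as a bar. The lines were apart for the Mt1 probe A_52_P423810, both Slc11a2 probes, Slc40a1, Ireb2 and the Ftl1 probe in the middle, and overlapped for the others.

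Metallothionein 1 and 2 bind the same metals and sit side by side on the chromosome. The Mt1 probe A_66_P111660 read 18.06, 17.98 and 17.64 (log2 intensity) on 1G11-mock replicates 1 to 3 and 18.19, 17.73 and 17.48 on 1G11-SOD3 replicates 1 to 3. The 2 lines overlapped, and the difference was -0.09 (SE 0.25, 95% interval -0.65 to 0.46, limma adjusted p = 0.909). It came to 0.07 without 1G11-SOD3 replicate 3. Mt2, by its only probe, read 16.34, 16.77 and 16.94 on the 1G11-mock arrays and 17.23, 16.75 and 16.95 on the 1G11-SOD3 arrays, again with overlap. Its difference was 0.29 (SE 0.25, 95% interval -0.25 to 0.83, limma adjusted p = 0.654), and it came to 0.12 without 1G11-mock replicate 1 and 0.17 without 1G11-SOD3 replicate 1.

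A second probe, A_52_P423810, was designed on a cDNA clone whose description gives metallothionein 1 as its product, while its gene name in the files is the clone's own identifier and not Mt1. It is counted with Mt1 on that description alone. Whether it reads the same transcript as A_66_P111660 was not tested. It read 10.50, 10.32 and 10.64 on the 1G11-mock arrays and 9.96, 9.46 and 9.01 on the 1G11-SOD3 arrays. All 1G11-SOD3 arrays lay below all 1G11-mock arrays, and the difference of -1.01 (SE 0.27, 95% interval -1.60 to -0.42) had a limma adjusted p of 0.0739. Within each array the value of this probe minus that of the other Mt1 probe was lower in 1G11-SOD3 cells (mean change -0.92), with no overlap between the lines. The exact 2-sided permutation p was 0.1, the smallest that 3 against 3 arrays allow, and 0.167 after adjustment over the 5 such pairs compared. Those pairs include Ftl1 and Tfrc spots in the middle set against spots outside it, where a gap was known beforehand. Their presence lowers this adjusted value, so it carries little weight. After adjustment for place on the array, described with Ftl1, the differences of the 2 probes were -0.65 and -0.16.

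Heme oxygenase 1 was measured by a probe toward the end of the transcript (A_51_P263965, position 1290) and by the coding probe printed above (A_55_P2029687, position 324). The first read 12.91, 13.83 and 13.26 on the 1G11-mock arrays and 13.38, 13.43 and 13.20 on the 1G11-SOD3 arrays. All 1G11-SOD3 values fell inside the range of the 1G11-mock values, and the difference was 0.01 (SE 0.26, 95% interval -0.57 to 0.59, limma adjusted p = 0.995). Its sign changed when single arrays were left out, with -0.21 without 1G11-mock replicate 1, -0.03 without 1G11-mock replicate 3, -0.02 without 1G11-SOD3 replicate 1 and -0.04 without 1G11-SOD3 replicate 2. The coding probe read 9.86, 10.48 and 10.29 on the 1G11-mock arrays and 10.05, 9.88 and 9.66 on the 1G11-SOD3 arrays. The lines overlapped there too, with a difference of -0.35 (SE 0.24, 95% interval -0.88 to 0.19, limma adjusted p = 0.575). The difference between these 2 probes overlapped between the lines (exact permutation p = 0.2).

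Biliverdin reductase B, which reduces biliverdin and flavins, read 14.05, 14.37 and 13.69 on the 1G11-mock arrays and 13.84, 13.70 and 13.52 on the 1G11-SOD3 arrays. Replicates 1 and 2 of 1G11-SOD3 lay above the lowest 1G11-mock value, so the lines overlapped. The difference was -0.35 (SE 0.24, 95% interval -0.89 to 0.18, limma adjusted p = 0.568).

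Ferritin stores iron in a shell of heavy chains (Fth1), which oxidize it, and light chains (Ftl1). Fth1 read 18.23, 17.78 and 17.95 on the 1G11-mock arrays and 16.91, 18.09 and 18.26 on the 1G11-SOD3 arrays. Replicate 1 of 1G11-SOD3 stood apart below every other array, and the 2 other 1G11-SOD3 arrays lay within or just above the 1G11-mock values. The difference of -0.23 (SE 0.34, 95% interval -0.97 to 0.50, limma adjusted p = 0.811) became 0.19 without that array. The Ftl1 probe outside the middle, A_55_P1968245, had the smallest standard error among the 15 probes. It read 18.44, 18.38 and 18.32 on the 1G11-mock arrays and 18.30, 18.39 and 18.10 on the 1G11-SOD3 arrays. The lines overlapped, with a difference of -0.12 (SE 0.21, 95% interval -0.59 to 0.35, limma adjusted p = 0.854).

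The Ftl1 probe in the middle, A_55_P1983959, gave another picture. It read 16.48, 16.28 and 13.34 on the 1G11-mock arrays and 16.92, 16.65 and 16.95 on the 1G11-SOD3 arrays. The lines did not overlap, but 1G11-mock replicate 3, the array on which the middle was dimmest, stood about 3 units below the other 1G11-mock arrays. The difference was 1.48 (SE 0.64, 95% interval 0.07 to 2.89, limma adjusted p = 0.318), and it was 0.46 without 1G11-mock replicate 3. As a correction for place on the array, a smooth surface was fitted to spots well above background, this one included, and subtracted from each array. The difference was then 0.01 (SE 0.40, limma adjusted p = 0.997). The difference between the 2 Ftl1 probes within arrays did not overlap between the lines (1.60, exact permutation p = 0.1). The middle was known beforehand to read dim on the 1G11-mock arrays, so this p is no test of Ftl1.

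**Figure D2:**
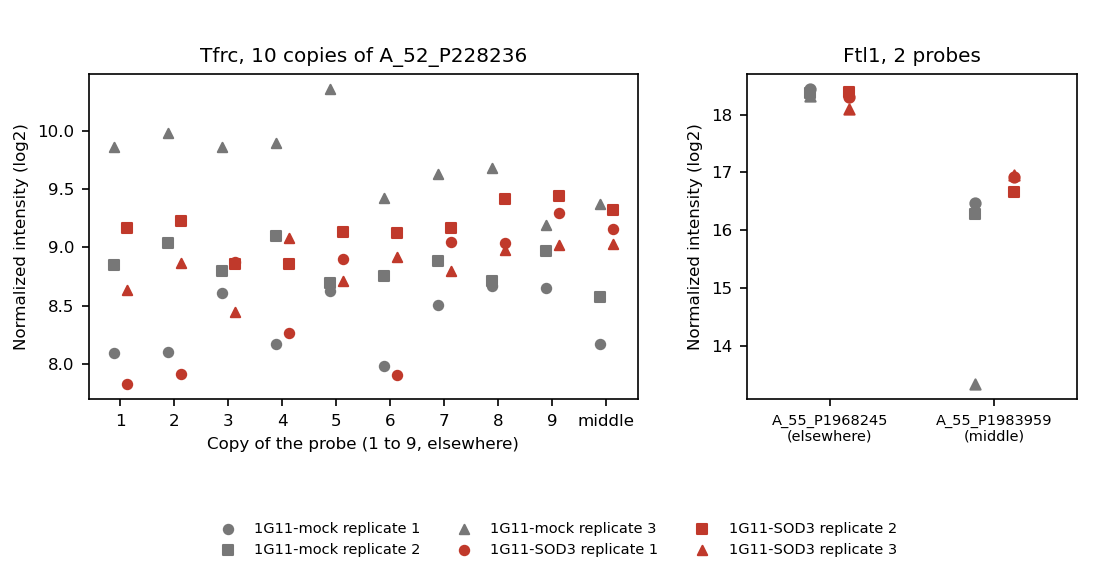
Left, normalized log2 intensity (vertical axis) of the 10 copies of Tfrc probe A_52_P228236 (horizontal axis, 9 outside the middle ordered by their difference and 1 in the middle); right, the same for the 2 Ftl1 probes. Grey is 1G11-mock, red 1G11-SOD3 and shapes are replicates. 1G11-mock replicate 3 is the highest array for 9 of 10 Tfrc copies and far the lowest for the Ftl1 probe in the middle.

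Iron enters cells bound to transferrin through its receptor, Tfrc. The probe printed 10 times, A_52_P228236, read 8.38, 8.87 and 9.69 on the 1G11-mock arrays and 8.56, 9.15 and 8.83 on the 1G11-SOD3 arrays, as the mean of its 9 copies outside the middle. All 1G11-SOD3 values lay inside the 1G11-mock range, and the difference was -0.13 (SE 0.33, 95% interval -0.84 to 0.58, limma adjusted p = 0.901). The differences of the 9 single copies ran from -0.39 to 0.32, 7 below 0 and 2 above. In all 10 copies replicate 1 was the lowest and replicate 3 the highest of the 1G11-mock arrays, and in 9 of them replicate 3 read above every 1G11-SOD3 array. Copies of a probe share the same RNA, so they repeat the same 3 arrays and add no replicates. Without 1G11-mock replicate 3 the difference was 0.23, and without 1G11-SOD3 replicate 1 it was 0.01.

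The Tfrc copy in the middle read 8.17, 8.57 and 9.37 on the 1G11-mock arrays and 9.16, 9.32 and 9.03 on the 1G11-SOD3 arrays. The lines overlapped, and the difference was 0.47 (SE 0.30, limma adjusted p = 0.531). Within arrays, the copy in the middle minus the mean of the other copies was higher in every 1G11-SOD3 array than in any 1G11-mock array, by 0.60 log2 units (exact permutation p = 0.1). Here too the dim middle was known beforehand, and the p is no test of Tfrc. The 2 coding probes printed above were dim. A_51_P167876 was well above background on no array, with a 1G11-mock mean of 7.41 (SD 0.52, n = 3) and a 1G11-SOD3 mean of 7.05 (SD 0.14, n = 3), and no fold is given. A_65_P06446 was well above background on 0 of the 1G11-mock arrays, at 7.91, 7.38 and 8.04, and on 2 of the 1G11-SOD3 arrays, at 8.50, 8.44 and 7.72. The lines overlapped (limma adjusted p = 0.532), and no fold is given.

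DMT1, encoded by Slc11a2, carries iron across the endosomal membrane into the cytosol. Its probe near the end of the transcript, A_51_P388737, read 11.64, 11.25 and 11.56 on the 1G11-mock arrays and 10.84, 10.56 and 10.58 on the 1G11-SOD3 arrays. The lines were apart by more than the spread within either, yet the difference of -0.82 (SE 0.22, 95% interval -1.31 to -0.33) had a limma adjusted p of 0.0828 and was under 2-fold. The coding probe printed above, A_52_P254298, read 8.85, 8.32 and 8.93 on the 1G11-mock arrays and 8.19, 7.59 and 8.06 on the 1G11-SOD3 arrays, well above background on 2 arrays of each line. It too had every 1G11-SOD3 array below every 1G11-mock array, with a difference of -0.75 (SE 0.26, 95% interval -1.32 to -0.18, limma adjusted p = 0.184). The 2 probes differed by 0.07 in their differences (exact permutation p = 0.8). After adjustment for place on the array the differences were -0.63 and -0.17.

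Ferroportin, encoded by Slc40a1, is the known exporter of iron from cells. It read 8.50, 8.24 and 8.62 on the 1G11-mock arrays, where 2 of 3 were well above background, and 9.02, 8.81 and 9.13 on the 1G11-SOD3 arrays. The lines did not overlap, and 1G11-SOD3 was higher by 0.53 (SE 0.22, 95% interval 0.04 to 1.03, limma adjusted p = 0.298). Iron regulatory protein 2, encoded by Ireb2, binds iron-responsive elements in mRNAs such as those of ferritin and Tfrc. Its probe read 7.82, 7.25 and 7.68 on the 1G11-mock arrays and 8.07, 7.83 and 8.10 on the 1G11-SOD3 arrays. The lines did not overlap, but it was well above background on none of the 1G11-mock and 1 of the 1G11-SOD3 arrays (limma adjusted p = 0.474). The lowest signals well above background on 1G11-mock replicates 1 to 3 were 8.002, 8.092 and 8.169. The 1G11-SOD3 mean of 7.999 lay under each of them, so no fold is given.

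Over the 15 probes outside the middle, arrays of the 2 lines did not overlap for 5, with 2 higher in 1G11-SOD3 (Slc40a1, Ireb2) and 3 lower (Mt1 A_52_P423810 and both of Slc11a2). Among all probes there, 19.6% did not overlap, 8.22% higher and 11.4% lower. In the middle 1 of 2 did not overlap, the Ftl1 probe, which was higher. Among all probes there 28.5% did not overlap, 26.9% higher and 1.66% lower.

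**Figure D3:**
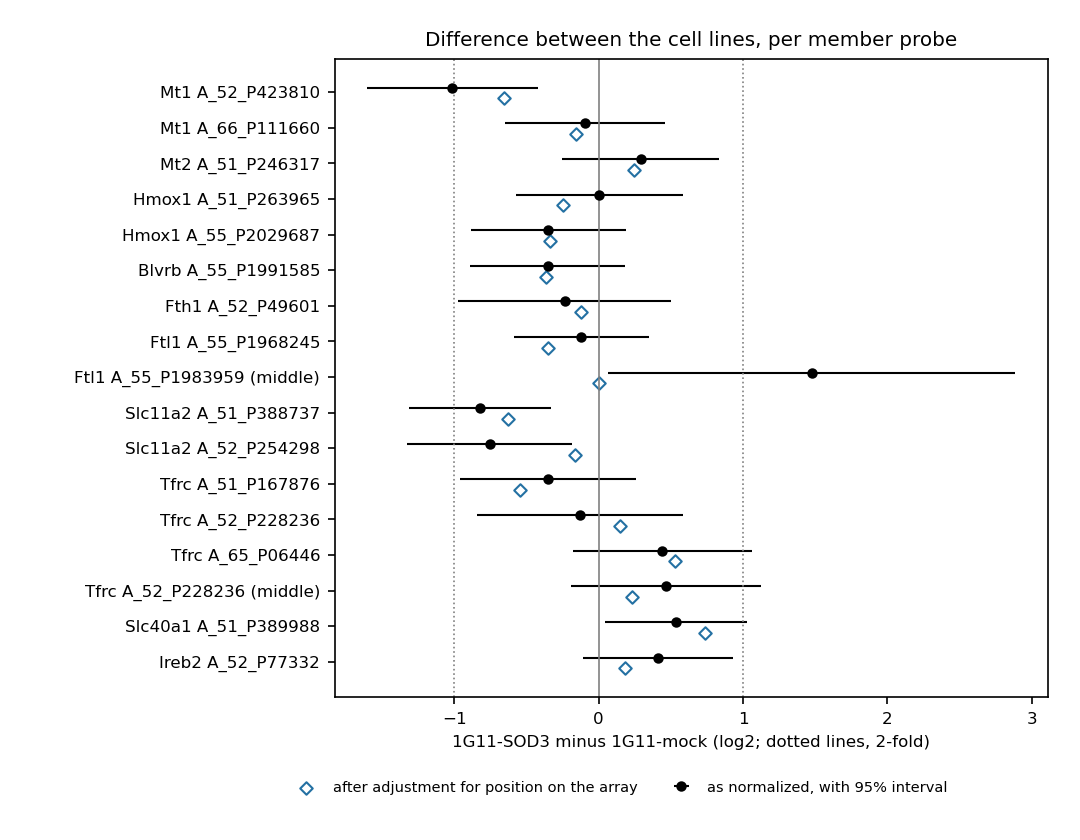
Difference between the lines (horizontal axis, log2, 1G11-SOD3 minus 1G11-mock) for every member probe (vertical axis): circles with 95% intervals as normalized, diamonds after adjustment for place on the array, and dotted lines at 2-fold. The diamond of the Ftl1 probe in the middle sits at 0.01 in place of 1.48.

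Adjustment for place brought copies of one probe together over the array: in 192 probes held out of the fit, the median SD of the difference among copies went from 0.541 to 0.164. For the member probes the lowest adjusted p after this adjustment was 0.132, that of Slc40a1, whose difference became 0.74. The Mt1 probe A_52_P423810 came to -0.65, and Tfrc A_52_P228236 outside the middle changed sign to 0.15, as did Hmox1 A_51_P263965 to -0.24.

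The wider pathway was read from a list of 77 genes of metal, heme and iron handling, of which 75 had a probe outside the middle (the other two, Slc39a8 and Fdxr, lie in it). Each gene stands by its brightest probe. Of the 75, 0 rose and 2 fell (Lrp1, Cp), against 3.12% of all 20308 genes so represented (1.19% higher and 1.93% lower). The median log2 difference of the list was -0.11, beside -0.06 over all genes. Without the 10 members it was -0.11 over 65 genes. After adjustment for place on the array the median was 0.01 for the list, 0.01 without the 10 members and 0.09 over all genes. The list holds 10 genes that were well above background on no array.

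LRP1, a receptor that takes up heme bound to hemopexin among many other ligands, read 15.94, 16.20 and 15.80 on the 1G11-mock arrays and 15.05, 14.51 and 15.01 on the 1G11-SOD3 arrays, a difference of -1.13 (SE 0.24, limma adjusted p = 0.0293). Ceruloplasmin (Cp), a copper ferroxidase that works with ferroportin, read 13.81, 13.98 and 14.51 on the 1G11-mock arrays and 13.00, 13.03 and 13.10 on the 1G11-SOD3 arrays, a difference of -1.06 (SE 0.24, limma adjusted p = 0.0396). Neither overlapped between the lines. A second Cp probe gave -1.01 (limma adjusted p = 0.0548) and was not called. The calls of Lrp1 and Cp were close to the threshold. Of 19 alternatives, Lrp1 was called in 9 and Cp in 8, and after adjustment for place on the array neither was called (differences of -1.13 and -0.79). With the replicate number as a block, 5 genes of the list were called, Steap3 higher and Lrp1, Cp, Lcn2 and Hif1a lower. Without 1G11-mock replicate 2, 1G11-SOD3 replicate 1 or 1G11-SOD3 replicate 2, no gene of the list was called, and without 1G11-SOD3 replicate 3 there was 1, Nfe2l2.

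**Figure D4:**
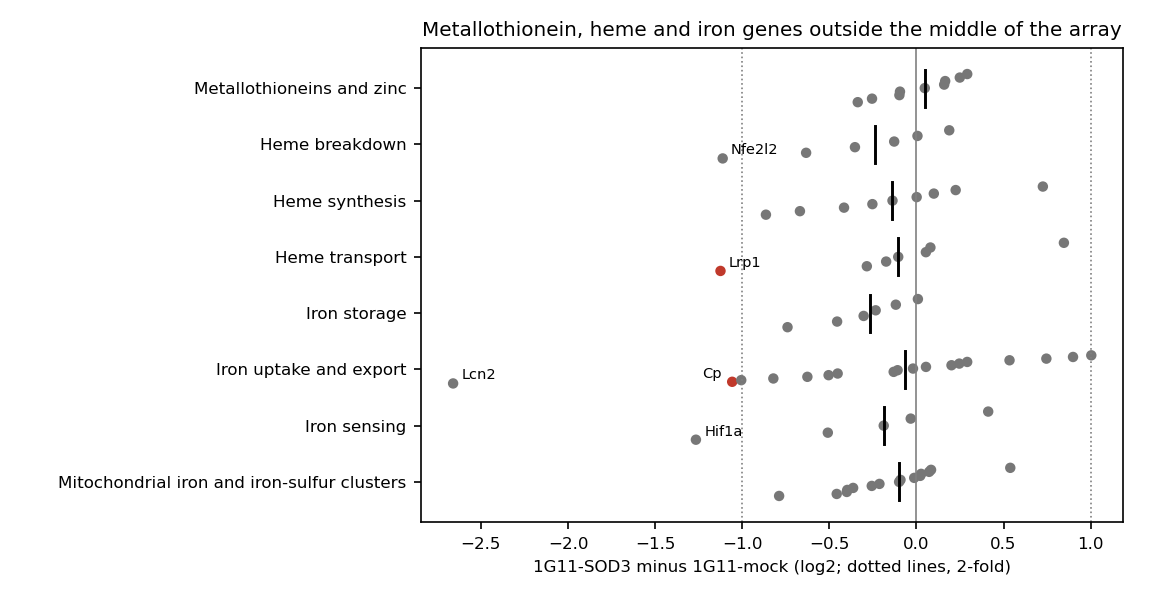
Difference between the lines (horizontal axis, log2, 1G11-SOD3 minus 1G11-mock) for the 75 genes with a probe outside the middle, grouped by role (vertical axis), with red for genes that passed the test, black bars for group medians and dotted lines at 2-fold. Most genes lie between the dotted lines, with Lcn2 at -2.66 farthest from 0.

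By group, no gene of metallothioneins and zinc was called among 9, with a median of 0.05, and the member of that group farthest from 0 was Mtf1, the metal-sensing transcription factor, at -0.34 (limma adjusted p = 0.553). Heme breakdown had no call among 6 genes and a median of -0.24. Its farthest gene was Nfe2l2, which encodes NRF2, at 14.96, 14.73 and 14.56 on the 1G11-mock arrays and 13.11, 13.68 and 14.13 on the 1G11-SOD3 arrays. The lines did not overlap and the difference was -1.11 (SE 0.28, limma adjusted p = 0.059). After adjustment for place on the array it was -0.97 (limma adjusted p = 0.0493), under 2-fold. Hmox1, a known NRF2 target, stood at 0.01 by its brightest probe and at -0.35 by its coding probe. After that adjustment these were -0.24 and -0.33. A relation between Nfe2l2 and Hmox1 was not tested. Heme synthesis had no call among 9 genes and a median of -0.14, and its farthest gene, Alas2, was well above background on no array.

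Heme transport had Lrp1 as its 1 call among 7 genes and a median of -0.10. Iron storage had no call among 6 genes and a median of -0.27, and Ncoa4, the receptor that brings ferritin to autophagy, was farthest at -0.74 (limma adjusted p = 0.532). Its values were 12.27, 13.64 and 14.68 on 1G11-SOD3 replicates 1 to 3. Iron uptake and export had Cp as its 1 call among 18 genes and a median of -0.06. Lcn2, lipocalin 2, which binds iron-carrying siderophores, was farthest at 10.26, 10.29 and 13.50 on the 1G11-mock arrays and 8.75, 8.87 and 8.45 on the 1G11-SOD3 arrays. Its difference was -2.66 (SE 0.68, limma adjusted p = 0.0621), and -1.61 without 1G11-mock replicate 3, when the adjusted p was 0.0108.

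Iron sensing had no call among 5 genes and a median of -0.19, with Hif1a farthest at -1.27 (limma adjusted p = 0.144). Mitochondrial iron and iron-sulfur clusters had no call among 15 genes and a median of -0.10, with Isca2, an iron-sulfur cluster assembly protein, farthest at -0.79 (limma adjusted p = 0.147). After adjustment for place on the array the group medians were 0.22 for metallothioneins and zinc, -0.30 for heme breakdown and 0.02 for heme synthesis. They were -0.09 for heme transport, -0.16 for iron storage and 0.15 for iron uptake and export. Iron sensing came to -0.01 and the mitochondrial group to 0.06. A gene named after its values were seen is Trf, transferrin. Its brightest probe gave -1.01 (limma adjusted p = 0.133), and a second probe read 11.63, 12.25 and 12.32 on the 1G11-mock arrays and 10.04, 9.93 and 9.90 on the 1G11-SOD3 arrays, a fall with a difference of -2.11 (SE 0.25, limma adjusted p = 0.00115). After adjustment for place on the array the second probe gave -1.45 (limma adjusted p = 0.0070) and was still called. The brightest probe then gave -1.02 (limma adjusted p = 0.0613) and was not called.

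Across the 6 arrays, the probes whose values followed Mt1 A_66_P111660 most closely among 11427 candidates were of St3gal3 (Pearson r = 0.992), Rpl38 (r = 0.991) and Lrrc8a (r = 0.980). For Hmox1 A_51_P263965 they were of Hps1 (r = 0.992), Tsc22d4 (r = 0.984) and Fzr1 (r = 0.978). With 6 arrays that share a slide and their place on it, these are descriptions of likeness, and 0.825% of the candidates for Mt1 and 0.316% for Hmox1 had an r above 0.9.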

How the data were processed

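For each array the authors deposited Agilent Feature Extraction 10.7.3.1 output, with the mean, median, background and processed intensity of each spot on a linear scale, not normalized between arrays. Their log2 table, also deposited, holds values after normexp background correction and quantile normalization in limma. Here, mean intensities were corrected with normexp (offset 50, local background medians), control spots removed, values taken to log2 and quantile normalized, and outlier spots left out. Spots of a probe were averaged separately in and outside the middle, giving 55961 features. limma 3.58.1 in R 4.3.3 compared 3 with 3 arrays, with Benjamini-Hochberg adjustment over all features. The place surface was fitted with mgcv 1.9.3 to 20527 spots, on each array's deviations from the mean of 6. No spot was saturated. On simulated data, 200 of 200 changed features (4-fold, log2 of 2) were called, with 6 false calls. This does not show how often a change near 2-fold, or a smaller one, would be called.

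Replicate numbers, which run with slide column, were checked as pairs. Deviations from the group means correlated at 0.166, 0.102 and 0.157 between same-numbered arrays over 16335 probes, so a fit with the number as a block was added. Named genes are all member probes, called list genes, the gene farthest from 0 in each list group, Sod3, and the 3 probes most like Mt1 and Hmox1. One further gene was taken off the list before counting and is not reported here. Members and lists were chosen with earlier results of these data known. Leukocyte, epithelial and erythroid marker lists were also read: 4 of 6, 2 of 5 and 2 of 5 genes were well above background on no array, while Itgam and Cd3e, Krt19, and Hba-a1 were so on all 6 arrays. Hbb-bt was lower in 1G11-SOD3 cells (-1.14, but -0.31 with limma adjusted p = 0.570 after adjustment for place) and Epor (in the middle) higher. Python 3.11.15, scipy 1.17.1 and matplotlib 3.10.9 served for permutation tests and plots.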

Additional observations from a re-analysis of the deposited data

How the results depend on the processing

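Of 15 member probes outside the middle, 0 were called except with Agilent's processed signal (75th percentile scaling), which called 2, Slc11a2 A_52_P254298 (-1.47, adjusted p = 0.0445) and Tfrc A_51_P167876, which was well above background on no array and has no fold. In the middle 0 were called except under 75th percentile scaling, which called 1, Ftl1 (1.64, adjusted p = 0.0382). Leaving out each array in turn called none. The list's 2 calls (Lrp1, Cp) became 0 with an offset of 16, 0 without the middle, 0 after adjustment for place and 1 with a variance trend. With dim probes left out there were 3, Nfe2l2, Lrp1 and Cp, all lower. The processed signal called 4 others, all lower: Slc30a10, Trf, Hamp and Lcn2. Under 75th percentile scaling Steap2 was called higher and Alas2 and Lcn2 lower. Slc30a10, Hamp and Alas2 were well above background on no array. The replicate block called 5, and fits with 1 array left out called 0 to 3. The 920 probes called outside the middle became 7921 with the processed signal, 1555 under 75th percentile scaling and 440 to 869 with 1 array left out (fewest without 1G11-mock replicate 2). The block gave 1244 and changed no member call.

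The share called higher was 35.5% as normalized, 8.55% with the processed signal, 53.6% without the middle and 57.5% after adjustment for place. The processed signal moved the median of all probes to -0.50 and 75th percentile scaling to -0.35, so their values are relative to that. Signs changed for probes near 0. Fth1 was 0.17 with the processed signal and -0.51 to 0.19 with 1 array left out. Hmox1 A_51_P263965 was -0.016 with median pixels, -0.017 in the deposited table, -0.27 with the processed signal, -0.24 after adjustment for place and -0.21 to 0.25 with 1 array left out. With 1 array left out, Mt1 A_66_P111660 was -0.29 to 0.070, Mt2 0.12 to 0.42, Blvrb -0.53 to -0.19 and Ftl1 A_55_P1968245 -0.18 to -0.040 (-0.70 with the processed signal). Tfrc A_52_P228236 outside the middle was 0.046 with the processed signal, 0.013 without the middle, 0.15 after adjustment for place and -0.44 to 0.23 with 1 array left out, and its copy in the middle was -0.051 with the processed signal. The cause was not tested. Signal over background limits Ireb2, Slc40a1, Slc11a2 A_52_P254298 and the 2 dim Tfrc probes.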
